A study of Mus musculus with 21 samples.

Results

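Of the 55536 genes counted in mouse pancreatic islets, 7 that act where glucose enters the β-cell and is sensed there were followed through regular diet, high-fat diet and high-fat diet with the AMPK activator O304. They were chosen by name for their roles, with earlier results of these data known. Among them are the glucose transporters Slc2a2 (GLUT2) and Slc2a1 (GLUT1), the islet glucose-6-phosphatase G6pc2 and the glucose-responsive transcription factor Mlxipl (ChREBP). The others, Txnip, Arrdc4 and Pklr, are known targets of ChREBP and its relative MondoA. All 7 were among the 27229 genes tested, those with at least 10 read pairs over the 21 samples.

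Glucose enters mouse β-cells mainly through GLUT2 and is phosphorylated there. The glucose-6-phosphatase encoded by G6pc2 runs that step in reverse, and so bears on the glucose level at which insulin is released. Glucose-6-phosphate activates ChREBP and MondoA, which pair with Mlx and bind carbohydrate response elements, made of a pair of E-box-like elements set a few bases apart. Among their targets, Txnip encodes an α-arrestin that binds and inhibits thioredoxin and promotes the removal of glucose transporters from the cell surface, Arrdc4 encodes a related α-arrestin with the same effect on glucose uptake, and Pklr encodes the liver-type pyruvate kinase at the last step of glycolysis.

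Each sample was RNA from 150 islets pooled from 5 male CBA mice, and each of the 3 groups had 7 samples. RD mice ate regular diet, HFD mice ate high-fat diet from 10 weeks of age, and HFD-O304 mice ate the same high-fat diet with 0.8 mg of O304 per g of food. The methods give 9 weeks of diet and the results text 10 weeks. O304 is a pan-AMPK activator, AMPK being the energy-sensing kinase of the cell, and was given in the food, so that it was not directed at the islets alone. A whole islet holds α-, δ-, PP-, endothelial and other cells beside β-cells, so in these samples fewer cells of a type and less RNA per cell cannot be told apart. HFD-O304 replicate 1 was grouped by its title, since its diet label reads HFD. Samples carry replicate numbers 1 to 7, of which 1 to 4 and 5 to 7 come from separate runs of library numbers.

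The samples held 13809266 to 48922569 read pairs on genes, with HFD-O304 replicate 2 the shallowest, and no 2 samples of a group were alike to within counting noise. Markers of 11 cell types were compared too. Of 5 α-cell markers, 4 were lower under HFD than under RD, and all 5 were higher in HFD-O304 than in HFD islets. Their summed normalized count was 785832 to 1004824 in RD, 290931 to 610486 in HFD and 821129 to 1107038 in HFD-O304 islets. In HFD against RD islets 2 of 3 δ-cell markers were lower, 0 of 2 PP-cell, 0 of 5 duct-cell, 0 of 6 endothelial, 0 of 6 macrophage, 0 of 10 acinar and 0 of 5 red blood cell markers passed the test, and 1 of 6 mesenchymal and 1 of 4 liver markers were higher. In HFD-O304 against HFD islets 3 of 3 δ-cell, 3 of 5 duct-cell, 1 of 2 PP-cell and 1 of 6 macrophage markers were higher, 4 of 6 mesenchymal and 2 of 6 endothelial markers were lower, and β-cell markers (2 higher and 3 lower of 6) and liver markers (1 and 1 of 4) went both ways. In HFD-O304 against RD islets 1 duct-cell marker was higher and 1 endothelial and 1 mesenchymal marker were lower. Of all genes tested, 3.54%, 11.9% and 1.31% passed in these comparisons, in the order given. All 10 acinar markers lay below 0 on the log2 scale in each comparison, and none passed. Their sums spread widely, at 3292 to 307007 in RD, 642 to 228074 in HFD and 430 to 98304 in HFD-O304 islets. The missing calls therefore do not show equal acinar levels. Every marker had reads in each of the groups. The β-cell hormone genes were abundant throughout, with a summed count of the 6 β-cell markers of 10069180 to 12192530 in RD, 11689650 to 13669070 in HFD and 9283873 to 11006550 in HFD-O304 islets.

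The bases upstream of the transcription starts were examined for letters of the kind that ChREBP is known to bind. The 250 bases before each start were taken from RefSeq (GRCm38.p6), which lists 10 starts for the 7 genes, and both strands were searched for 4 sets of letters. These were the E-box CACGTG, the looser element CACGNG, and a pair of E-box-like elements spaced by 5 bases, either facing each other (CANGNGNNNNNCNCNTG) or pointing the same way (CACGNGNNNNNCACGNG). The facing form fixes fewer letters than the same-direction form. An E-box also matches the looser element, and the same-direction form was added after the Txnip window had been seen. The 4 windows printed are those with an E-box or a pair, and capitals mark it.

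Txnip, chr3:96557707-96557956, plus strand: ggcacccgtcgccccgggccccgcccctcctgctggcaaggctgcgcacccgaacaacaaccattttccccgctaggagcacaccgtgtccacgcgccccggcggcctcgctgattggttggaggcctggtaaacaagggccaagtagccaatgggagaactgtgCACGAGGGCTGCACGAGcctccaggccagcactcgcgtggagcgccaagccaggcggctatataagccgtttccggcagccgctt

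Pklr, downstream start, chr3:89136373-89136622, plus strand: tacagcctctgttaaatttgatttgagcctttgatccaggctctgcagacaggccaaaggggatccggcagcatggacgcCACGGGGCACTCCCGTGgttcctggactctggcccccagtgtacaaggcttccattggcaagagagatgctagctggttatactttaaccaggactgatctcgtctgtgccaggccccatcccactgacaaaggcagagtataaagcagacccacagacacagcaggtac

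Arrdc4, chr7:68749239-68749488, minus strand: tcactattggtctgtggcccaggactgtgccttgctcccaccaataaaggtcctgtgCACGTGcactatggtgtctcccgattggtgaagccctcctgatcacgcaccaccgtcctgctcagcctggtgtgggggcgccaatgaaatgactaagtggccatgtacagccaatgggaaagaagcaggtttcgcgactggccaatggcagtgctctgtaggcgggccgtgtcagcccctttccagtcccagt

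Mlxipl, upstream start, chr5:135089640-135089889, plus strand: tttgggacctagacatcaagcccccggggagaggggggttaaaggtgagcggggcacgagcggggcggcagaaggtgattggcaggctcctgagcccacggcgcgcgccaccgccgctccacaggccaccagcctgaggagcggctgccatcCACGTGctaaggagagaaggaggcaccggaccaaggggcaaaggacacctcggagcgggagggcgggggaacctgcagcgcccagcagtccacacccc

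The Txnip window held the same-direction pair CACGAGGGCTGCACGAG from 85 to 69 bases before the start, which 0.0457% of 32851 RefSeq windows of this length hold. That form was added with this window seen and fixes more letters than the facing form. Its share is therefore no measure of how unusual the window is. The window of the downstream Pklr start, known as the start of the liver-type transcript, held the facing pair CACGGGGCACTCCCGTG from 170 to 154 bases before it, a form found in 0.454% of windows, and the upstream Pklr start 481 bases away held none. Arrdc4 had an E-box 193 bases before its start and Mlxipl had one 98 bases before its upstream start, and 6.02% of all windows have an E-box. The Mlxipl starts lie 17001 bases apart and are known to give the ChREBP-β (upstream) and ChREBP-α (downstream) transcripts, which gene counts cannot separate. The looser element is found in 23.5% of all windows. It had 4 matches in the Txnip window, 3 before the upstream Mlxipl start, 2 before Arrdc4 and 2 before the downstream Pklr start. An E-box counts there on both strands. None of the letters searched was found before the starts of Slc2a2, Slc2a1 or G6pc2, as is so for most windows of any gene. A match here describes letters in a window and not a bound site.

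The 7 genes differed widely in level (TPM, transcript abundance corrected for gene length and depth). In RD islets G6pc2 was by far the highest at 3308 ± 482 TPM (SD, n = 7), followed by Slc2a2 at 356 ± 37.0, Txnip at 129 ± 23.3 and Mlxipl at 49.3 ± 10.7 TPM. Pklr at 14.5 ± 1.97, Arrdc4 at 9.45 ± 1.30 and Slc2a1 at 7.15 ± 0.626 TPM were the lowest, and in RD islets neighbours among these 3 overlapped between samples, while the 4 higher genes overlapped with no neighbour. In HFD islets Txnip at 296 ± 172 TPM stood above Slc2a2 at 212 ± 59.4 TPM, with overlapping samples. In HFD-O304 islets Slc2a2 at 389 ± 45.3 TPM was again above Txnip at 191 ± 20.9 TPM, and there no neighbours overlapped.

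In HFD against RD islets, 4 of the 7 genes changed at an edgeR adjusted p under 0.01, against 3.54% of all genes tested. The glucose transporters Slc2a2 and Slc2a1 fell (1.54% of all genes did) and the α-arrestins Txnip and Arrdc4 rose (2.0% of all genes did), while G6pc2, Mlxipl and Pklr did not pass. In HFD-O304 against RD islets none of the 7 passed, against 1.31% of all genes, and none separated the groups without overlap, which 1.56% of all genes did. In HFD-O304 against HFD islets 2 of the 7 passed, against 11.9% of all genes, Slc2a2 higher (5.08% of all genes) and Arrdc4 lower (6.79%). These comparisons share samples, so that the last is not independent of the first.

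**Figure D1:**
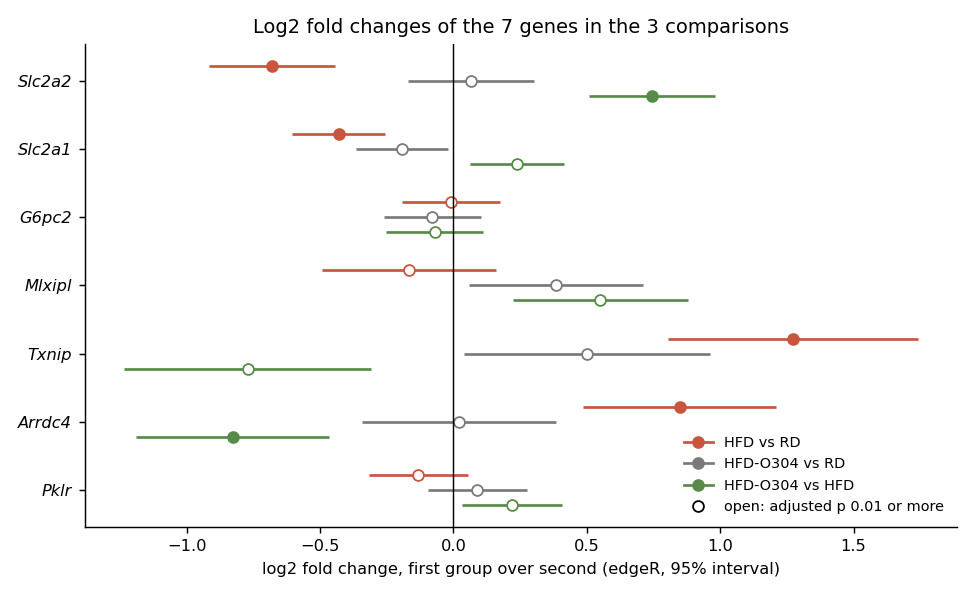
Log2 fold changes (horizontal axis, edgeR) of the 7 genes in the 3 comparisons, with lines for 95% intervals and filled points for adjusted p below 0.01. Slc2a2 lies at -0.68 (HFD vs RD) and 0.74 (HFD-O304 vs HFD), and Txnip and Arrdc4 lie at 1.27 and 0.85 under HFD.

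Slc2a2 (ENSMUSG00000027690, chr3:28697903-28731359, plus strand, GRCm38, 11 exon blocks) encodes GLUT2, the low-affinity transporter of β-cells and hepatocytes. Its normalized count, meaning read pairs divided by the size factor of the sample, was 30233 at the lowest, 35656 at the median and 37115 at the highest in RD islets. In HFD islets it was 12038, 23116 and 27952, and in HFD-O304 islets 32109, 36704 and 40704. All 7 HFD samples lay below all 14 others, and HFD replicates 1 and 4 were the lowest of all.

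The level of Slc2a2 fell by 37.6% in HFD against RD islets (log2 fold change -0.68, SE 0.121, edgeR adjusted p = 0.000723) without overlap of the groups, a separation that 1.35% of all genes showed. HFD-O304 islets were 67.5% above HFD islets (log2 0.74, SE 0.121, edgeR adjusted p = 4.95e-05), again without overlap, which 6.17% of all genes showed. Against RD islets the HFD-O304 value was 0.06 (95% interval -0.17 to 0.30, edgeR adjusted p = 0.884). The fall was seen in both runs of libraries, by 0.77 on the log2 scale in replicates 1 to 4 (edgeR adjusted p = 0.0101, just above the threshold) and by 0.58 in replicates 5 to 7 (edgeR adjusted p = 0.00263), with no overlap in either. With any 1 sample left out the log2 change stayed between -0.75 and -0.57, and its highest adjusted p in edgeR was 0.00238.

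The 6 β-cell markers were divided in HFD against RD islets. The hormone genes, which make up nearly all of the marker sum, lay at 0.12 (Ins1), 0.09 (Ins2) and 0.41 (Iapp, which encodes amylin) on the log2 scale, and of these Iapp passed (edgeR adjusted p = 0.00384). The other 3 lay on the same side as Slc2a2: the zinc transporter gene Slc30a8 fell by 0.36 (edgeR adjusted p = 0.0012), while the peptide gene Ucn3 at -0.32 and the transcription factor gene Nkx6-1 at -0.19 did not pass (edgeR adjusted p = 0.0809 and 0.314). In HFD-O304 against HFD islets Slc30a8 and Ucn3 were higher (log2 0.53 and 0.52), as Slc2a2 was, and Ins1, Ins2 and Iapp were lower. The α-cell and δ-cell markers moved the same way as Slc2a2 in both comparisons, and the part of cell composition in the result was not tested.

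Slc2a1 encodes GLUT1, the high-affinity transporter found in most tissues and the main one of human β-cells. The gene (ENSMUSG00000028645, chr4:119108711-119137983, plus strand) had a normalized count of 376 at the lowest, 426 at the median and 512 at the highest in RD islets. In HFD islets these were 268, 321 and 389, and in HFD-O304 islets 316, 386 and 409. HFD samples were mostly below RD samples, and HFD replicate 7 alone reached into the RD range.

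Slc2a1 fell by 25.8% in HFD against RD islets (log2 -0.43, SE 0.0888, edgeR adjusted p = 0.00266). The change was larger in replicates 1 to 4 (log2 -0.61, edgeR adjusted p = 0.00423) than in replicates 5 to 7 (log2 -0.20, edgeR adjusted p = 0.28), although the test of that difference did not pass (log2 -0.42, edgeR adjusted p = 0.704). HFD-O304 islets lay between, at 0.24 above HFD (SE 0.0891, edgeR adjusted p = 0.0624) and -0.19 against RD islets (SE 0.0883, edgeR adjusted p = 0.310). The α-cell markers (4 of 5) and δ-cell markers (2 of 3) were lower in HFD than in RD islets, as Slc2a1 was. Mesenchymal markers went the other way, with a summed count of 8883 to 12509 in RD, 10758 to 19067 in HFD and 5929 to 10069 in HFD-O304 islets, and the part of these cells in the result was not tested. Most reads of that sum came from Rgs5 (194323 read pairs over the 21 samples, the next being Col3a1 at 15788).

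Per length, GLUT2 transcripts outnumbered GLUT1 transcripts 37.9 to 60.2 times in RD islets (median 51.9), 27.4 to 55.2 times in HFD islets (median 41.1) and 47.9 to 78.4 times in HFD-O304 islets (median 58.0). The log2 ratio was 0.55 higher in HFD-O304 than in HFD islets (exact two-sided permutation test over samples, p = 0.00816, adjusted over 12 comparisons p = 0.049), and this call was lost with unstranded counts (adjusted p = 0.0524) and in 13 of the 14 comparisons that left out 1 of these samples. Between HFD and RD islets it differed by -0.29 (exact permutation p = 0.118, adjusted p = 0.283), both transporters having fallen.

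**Figure D2:**
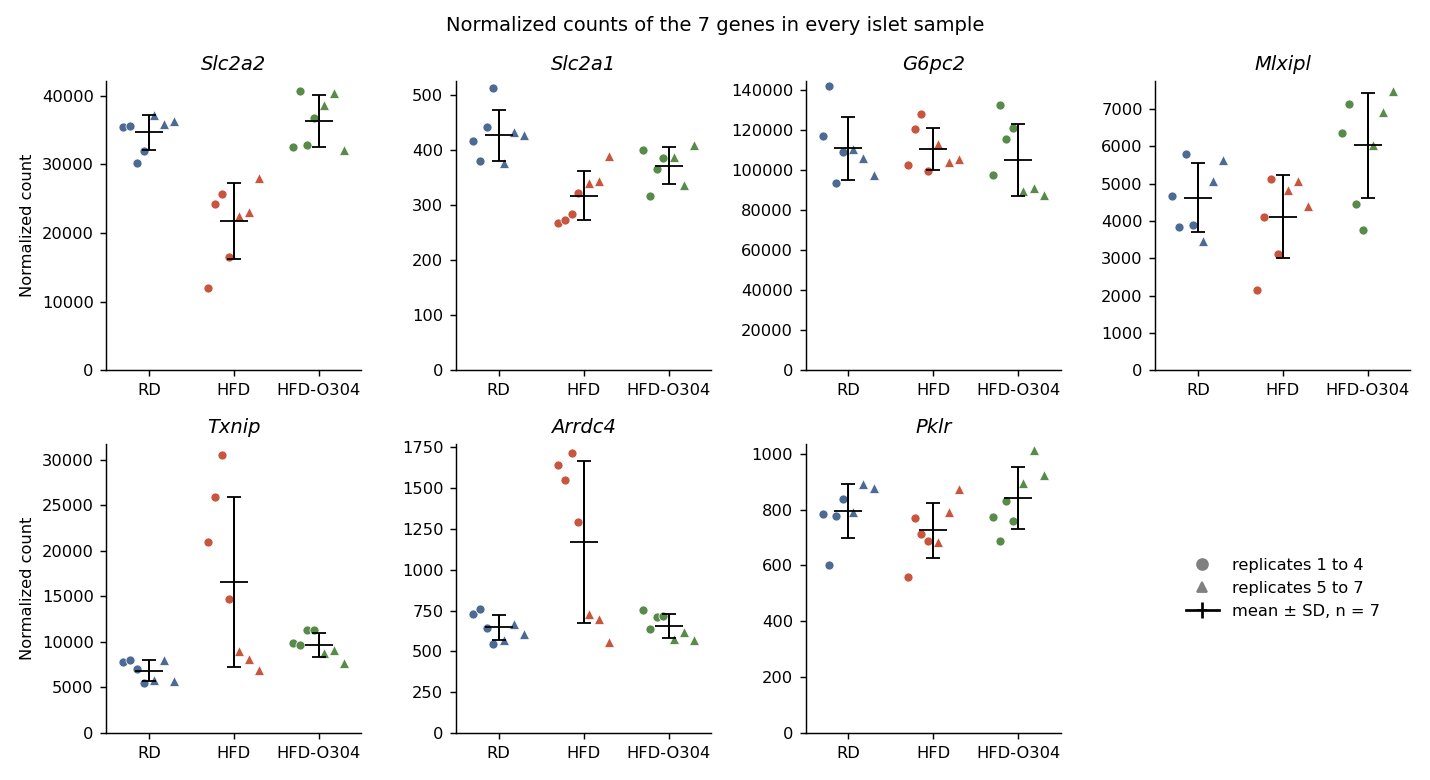
Normalized counts (vertical axes, from 0) of the 7 genes in each of the 21 samples, with circles for replicates 1 to 4, triangles for replicates 5 to 7 and black bars for the mean ± SD of 7 samples. The HFD samples of Slc2a2 lie at 27952 or below, under all other samples, and the HFD samples of Txnip and Arrdc4 fall apart by run of libraries.

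Of the 12 other hexose transporter genes on a fixed list, 4 changed in HFD against RD islets, against 3.54% of all genes tested. Slc2a3, encoding the high-affinity transporter GLUT3 of neurons, fell by 0.86 on the log2 scale (edgeR adjusted p = 0.000992) at a low mean count of 133 in RD and 73.3 in HFD islets. Slc2a6, which encodes a lysosomal member of the family, rose by 0.89 (edgeR adjusted p = 0.00248). Slc2a13, encoding the proton-coupled myo-inositol transporter, rose by 0.32 (edgeR adjusted p = 0.00266), and Slc5a10, a sodium-coupled sugar transporter, rose by 1.57 (edgeR adjusted p = 0.00659) from a mean of 24.7 to 73.3. Its HFD samples lay at 48.0 to 167 in replicates 1 to 4 and at 25.5 to 31.7 in replicates 5 to 7, against 20.1 to 29.9 in RD islets, so that they too stood apart by run of libraries.

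Slc2a6 passed in all 3 comparisons. Its mean normalized count was 364 ± 133 in RD (SD, n = 7), 678 ± 191 in HFD and 199 ± 15.7 with O304, so that it was lower with O304 than in either other group (log2 -1.76 against HFD, edgeR adjusted p = 1.57e-07, and -0.87 against RD, edgeR adjusted p = 0.00756). Its RD samples stood apart by run of libraries, at 347 to 563 in replicates 1 to 4 and 217 to 274 in replicates 5 to 7. In the same order HFD islets had 576 to 970 and 387 to 727, and HFD-O304 islets 191 to 226 and 184 to 196. Relative to HFD islets, HFD-O304 islets had 0.94 more Slc2a3 on the log2 scale (edgeR adjusted p = 7.9e-05), and Slc2a4, encoding the insulin-responsive GLUT4, was lower (log2 -1.12, edgeR adjusted p = 0.000104). The fructose transporter gene Slc2a5 was slightly lower (log2 -0.21, edgeR adjusted p = 0.00213) and Slc5a10 was lower as well. In all, 1 gene was higher and 4 were lower in that comparison, against 5.08% and 6.79% of all genes. The median of the 12 was -0.09, against 0.03 for all genes tested. In HFD-O304 against RD islets Slc2a13 was also higher (log2 0.49, edgeR adjusted p = 3.04e-05). Over HFD against RD the list's median was 0.20, against -0.00 for all genes.

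G6pc2 encodes a glucose-6-phosphatase catalytic subunit made almost only in islets. The gene (ENSMUSG00000005232, chr2:69211073-69227841, plus strand) had a normalized count of 93498 to 141732 in RD islets (median 109259). HFD islets ranged from 99600 to 127776 (median 105704) and HFD-O304 islets from 87655 to 132555 (median 97390). The groups overlapped. All HFD samples lay within the RD range, and of the 7 HFD-O304 samples 4 lay below every HFD sample and 1 above.

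The log2 difference of G6pc2 was -0.01 in HFD against RD islets (95% interval -0.19 to 0.17, edgeR adjusted p = 0.979), -0.08 in HFD-O304 against RD islets (interval -0.26 to 0.10, edgeR adjusted p = 0.778) and -0.07 in HFD-O304 against HFD islets (interval -0.25 to 0.11, edgeR adjusted p = 0.694). Within replicates 5 to 7 the 3 HFD-O304 samples, at 87655 to 91089, lay below the 3 HFD samples, at 104192 to 112950 (log2 -0.26, edgeR adjusted p = 0.00171), and in replicates 1 to 4 the value was 0.04 (edgeR adjusted p = 0.876). The difference between the runs, 0.32 on the log2 scale, had an unadjusted p of 0.0477 in edgeR, and 1314 of 27229 genes had one under 0.05.

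None of the 12 other genes of glucose phosphorylation and glucose-6-phosphate use changed in HFD against RD islets. The ubiquitous hexokinase gene Hk1 lay at -0.06 on the log2 scale (edgeR adjusted p = 0.808), Hk2, at a mean of 11.8 counts in RD islets, at -0.22 (edgeR adjusted p = 0.779), and the widely expressed phosphatase gene G6pc3 at 0.15 (edgeR adjusted p = 0.167). Slc37a4, which encodes the transporter that carries glucose-6-phosphate into the endoplasmic reticulum to these phosphatases, was 0.23 higher in HFD-O304 than in HFD islets (SE 0.0498, edgeR adjusted p = 0.00109), the single call of the list in any comparison. The list's medians were 0.02, 0.10 and 0.18 in HFD against RD, HFD-O304 against RD and HFD-O304 against HFD islets. In the same order 3.54%, 1.31% and 11.9% of all genes passed.

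Mlxipl encodes ChREBP itself. The gene (ENSMUSG00000005373, chr5:135089890-135138382, plus strand) had a normalized count of 3455 at the lowest, 4656 at the median and 5803 at the highest in RD islets. HFD islets had 2146, 4387 and 5121, and HFD-O304 islets 3768, 6345 and 7479. The HFD-O304 samples were mostly the highest, but replicates 3 and 4 of that group lay within the range of the others.

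Mlxipl differed by -0.17 in HFD against RD islets (95% interval -0.49 to 0.16, edgeR adjusted p = 0.645) and by 0.38 in HFD-O304 against RD islets (interval 0.06 to 0.71, edgeR adjusted p = 0.269). In HFD-O304 against HFD islets it was 0.55 (SE 0.167, edgeR adjusted p = 0.0192), with 5 of 7 HFD-O304 samples above all HFD samples, and did not pass the threshold. It passed with DESeq2 (adjusted p = 0.00713), and without HFD-O304 replicate 4 in edgeR (adjusted p = 0.005). The 2 runs of libraries gave alike values, 0.57 in replicates 1 to 4 (edgeR adjusted p = 0.108) and 0.53 in replicates 5 to 7 (edgeR adjusted p = 0.0144).

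Mlxip, which encodes MondoA, had a mean normalized count of 2579 ± 64.0 in RD (SD, n = 7), 2621 ± 167 in HFD and 2470 ± 141 with O304. Per length, Mlxipl stood 2.08 to 3.34 times above Mlxip in RD, 1.25 to 2.79 times in HFD and 2.52 to 4.41 times in HFD-O304 islets. The log2 ratio was 0.65 higher in HFD-O304 than in HFD islets (exact permutation p = 0.00699, adjusted p = 0.049), a call lost with unstranded counts (adjusted p = 0.0524) and in 12 of the 14 comparisons that left out 1 of these samples. Mlx, the shared partner of both factors, lay at 0.10 in HFD against RD islets (edgeR adjusted p = 0.521) and at -0.23 in HFD-O304 against HFD islets (edgeR adjusted p = 0.0337). Of the 8 partners and competitors listed, none passed in HFD against RD or HFD-O304 against RD islets. With O304 against HFD alone Mnt, a repressor that also binds E-boxes with Mlx or Max, was higher (log2 0.53, edgeR adjusted p = 0.00233) and Myc was lower (log2 -0.74, edgeR adjusted p = 0.00936). Of all genes, 11.9% passed in HFD-O304 against HFD islets. The list's medians in the 3 comparisons were 0.06, -0.00 and -0.01.

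Txnip encodes the α-arrestin that inhibits thioredoxin. The gene (ENSMUSG00000038393, chr3:96557957-96561883, plus strand) had a normalized count of 5529 at the lowest, 6964 at the median and 8037 at the highest in RD islets. In HFD islets these were 6859, 14665 and 30496, and in HFD-O304 islets 7672, 9658 and 11309. The HFD samples split in their runs of libraries: replicates 1 to 4 had 14665 to 30496, above every other sample of the study, and replicates 5 to 7 had 6859 to 8970, within or just above the RD range.

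Over all samples Txnip rose 2.42-fold in HFD against RD islets (log2 1.27, SE 0.238, edgeR adjusted p = 0.00113). Within replicates 1 to 4 the log2 change was 1.70 (SE 0.167, edgeR adjusted p = 1.62e-05) and within replicates 5 to 7 it was 0.29 (SE 0.12, edgeR adjusted p = 0.169). The 2 changes differed by 1.40 (SE 0.244, unadjusted p = 6.25e-06, edgeR adjusted p = 0.0567), which ranked in place 3 of 27229 genes and missed the threshold. In HFD-O304 against HFD islets Txnip lay at -0.77 (SE 0.236, edgeR adjusted p = 0.0207), with -1.13 in replicates 1 to 4 (edgeR adjusted p = 0.000122) and 0.10 in replicates 5 to 7 (edgeR adjusted p = 0.689). Against RD islets the HFD-O304 value was 0.50 (95% interval 0.04 to 0.96, edgeR adjusted p = 0.324). It passed only where HFD islets were left out of the fit (log2 0.49, edgeR adjusted p = 0.00532). In all, 6 of the 7 HFD-O304 samples lay above the highest RD sample.

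Arrdc4, the related α-arrestin gene (ENSMUSG00000042659, chr7:68736995-68749241, minus strand), had a normalized count of 547 at the lowest, 644 at the median and 761 at the highest in RD islets. HFD islets had 558, 1294 and 1714, and HFD-O304 islets 572, 635 and 754. Again HFD replicates 1 to 4, at 1294 to 1714, lay above every other sample, and HFD replicates 5 to 7, at 558 to 726, lay inside the RD range.

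Arrdc4 rose 1.80-fold in HFD against RD islets (log2 0.85, SE 0.185, edgeR adjusted p = 0.00421), with 1.21 in replicates 1 to 4 (SE 0.108, edgeR adjusted p = 9.19e-06) and 0.10 in replicates 5 to 7 (SE 0.0974, edgeR adjusted p = 0.621). The pooled call was lost when any of HFD replicates 1 to 4 or RD replicates 5 or 7 was left out, the highest adjusted p in edgeR being 0.0141 without HFD replicate 3. The difference between the runs, 1.09 (SE 0.161), had the smallest p of all 27229 genes (unadjusted p = 4.7e-07, edgeR adjusted p = 0.0128), and 0 genes passed 0.01 in that test, with 1862 at an unadjusted p under 0.05. Relative to HFD islets the level dropped by 43.6% in HFD-O304 islets (log2 -0.83, SE 0.185, edgeR adjusted p = 0.0017), with log2 -1.14 in replicates 1 to 4 (edgeR adjusted p = 1.8e-06) and -0.16 in replicates 5 to 7 (edgeR adjusted p = 0.369). They lay at 0.02 against RD islets (95% interval -0.34 to 0.38, edgeR adjusted p = 0.978).

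**Figure D3:**
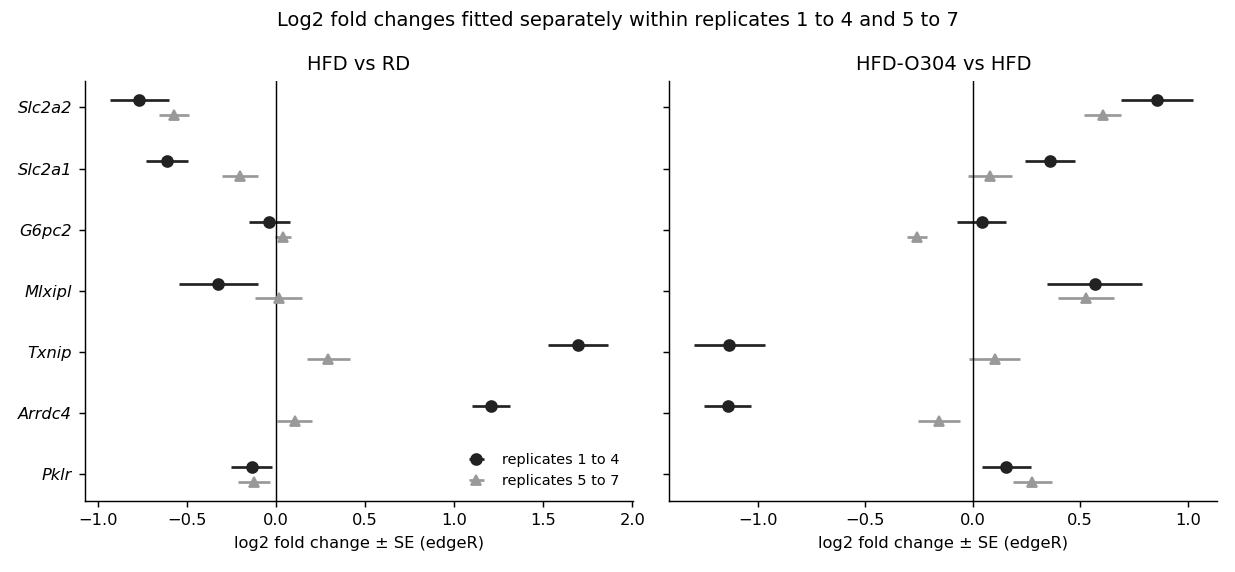
Log2 fold changes ± SE (horizontal axis, edgeR) of the 7 genes, fitted separately in replicates 1 to 4 (circles) and 5 to 7 (triangles), with HFD vs RD to the left and HFD-O304 vs HFD to the right. In HFD vs RD, Txnip lies at 1.70 and 0.29 and Arrdc4 at 1.21 and 0.10, while Slc2a2 lies at -0.77 and -0.58.

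Depth and the markers of other cells were compared between the runs for HFD islets. Replicates 1 to 4 had 27618749 to 44041180 read pairs on genes and replicates 5 to 7 had 33175697 to 42454268. The α-cell marker sum was 290931 to 561757 in replicates 1 to 4 and 326973 to 610486 in replicates 5 to 7, ranges that overlap nearly fully, and the β-cell sums overlapped too. The sum of the 4 liver-cell markers split with Txnip and Arrdc4, at 86288 to 133262 in replicates 1 to 4 and 42008 to 59357 in replicates 5 to 7. Over the 21 samples Ttr had 1138326 read pairs, against 1925 for Alb, 333 for Serpina1a and 169 for Apoa1. The sum is therefore a value of Ttr and no measure of liver cells. Alb had a mean of 57.2 in HFD, 58.0 in RD and 140 in HFD-O304 islets. In the same order of runs, mesenchymal marker sums in HFD islets were 16162 to 19067 and 10758 to 15539, and duct-cell sums 10613 to 13809 and 8832 to 10746. The δ-cell sums were 47104 to 71543 and 65505 to 104829, and the acinar sums 642 to 228074 and 6323 to 141702. Most mesenchymal marker reads came from Rgs5 (194323 read pairs over the 21 samples) and most δ-cell reads from Sst (2079385). Krt7 (151656) and Spp1 (56410) gave most duct-cell reads. The mesenchymal, duct-cell and δ-cell sums are thus mainly values of those genes. The part of these markers in the results for Txnip and Arrdc4 was not tested, and what else set the runs of libraries apart is not given in the sources used here.

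Txnip and Arrdc4 varied together from sample to sample also where diet and treatment did not differ. Pearson's r of their log2 counts was 0.92 within the 7 RD samples and 0.84 within the 7 HFD-O304 samples, given as a description with no test. No r is given within HFD islets, where the samples form separate clusters. By deviations from the group means over 21 samples, Arrdc4 was the gene most like Txnip among the 11810 genes whose normalized count averaged 100 or more (r = 0.96), and Txnip the gene most like Arrdc4. Next came Dpp6 (0.90) and Klf10 (0.89) for Txnip, and Prdx4 (0.88) and Hist1h1e (0.87) for Arrdc4. Over the 21 values themselves, which carry the group differences, the nearest genes after each other were Anapc16 (0.89) and Bambi (0.88) for Txnip, and Igsf1 (0.92) and Prdx4 (0.91) for Arrdc4. Taking out group means leaves the HFD and HFD-O304 samples split by run of libraries, so the values by deviations carry that split as well. All of these values share library, depth and cell composition.

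**Figure D4:**
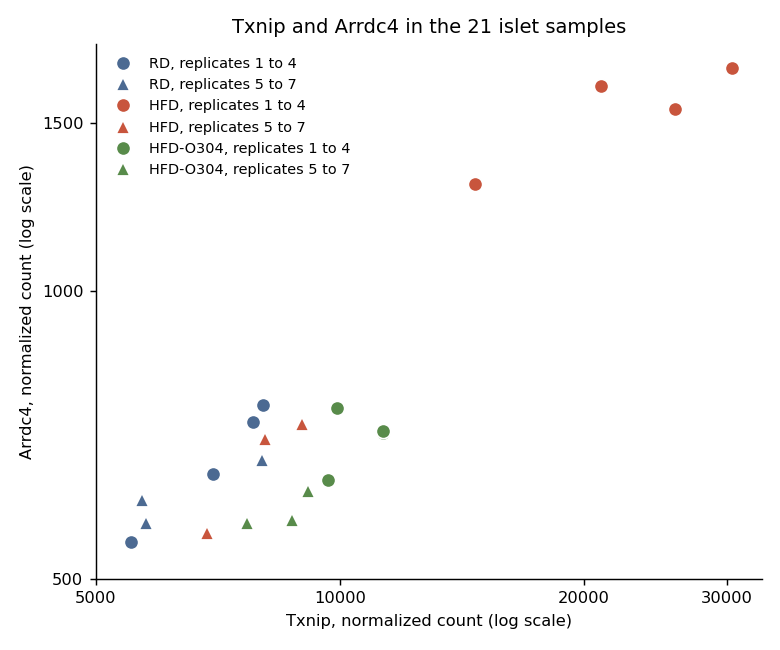
Normalized counts of Txnip (horizontal, log scale) against Arrdc4 (vertical, log scale) in the 21 samples, coloured by group, with circles for replicates 1 to 4 and triangles for replicates 5 to 7. HFD replicates 1 to 4 stand apart at Arrdc4 values of 1294 to 1714, and all other samples lie at 761 or below.

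Of the 10 tested genes of the α-arrestin and thioredoxin list, Txn1, encoding the cytosolic thioredoxin that the Txnip product binds, was the one that changed. It rose by 0.40 in HFD against RD islets (edgeR adjusted p = 0.00546), from a mean of 1388 ± 188 to 1837 ± 299 (SD, n = 7), and was lower in HFD-O304 than in HFD islets (log2 -0.49, edgeR adjusted p = 0.000197). Its HFD samples were less separate by run than those of Txnip, at 1738 to 2386 in replicates 1 to 4 and 1490 to 1832 in replicates 5 to 7. Arrdc5 had too few reads to be tested. The list's medians were -0.03, -0.01 and 0.01 in the 3 comparisons, where 3.54%, 1.31% and 11.9% of all genes passed.

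Pklr encodes the liver and red cell pyruvate kinase. The gene (ENSMUSG00000041237, chr3:89136142-89146784, plus strand) had a normalized count of 601 at the lowest, 791 at the median and 892 at the highest in RD islets. HFD islets had 558, 712 and 874, and HFD-O304 islets 687, 830 and 1013. The groups overlapped, and the HFD samples that were high in Txnip and Arrdc4 were not high in Pklr, at 558 to 770.

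The log2 difference of Pklr was -0.13 in HFD against RD islets (95% interval -0.32 to 0.06, edgeR adjusted p = 0.487), 0.09 in HFD-O304 against RD islets (interval -0.10 to 0.27, edgeR adjusted p = 0.748) and 0.22 in HFD-O304 against HFD islets (interval 0.03 to 0.41, edgeR adjusted p = 0.113). In HFD against RD islets the runs gave -0.14 and -0.12, neither past the threshold (edgeR adjusted p = 0.627 and 0.493). Gene counts do not separate the Pklr starts, of which only the downstream one holds the facing pair. Pkm, encoding the other pyruvate kinase, was the more abundant of the pair, and per length Pklr was 0.0528 to 0.0984 of it over the RD and HFD samples. The log2 ratio of Pklr to Pkm differed by -0.10, 0.03 and 0.13 in the 3 comparisons (exact permutation, adjusted p = 0.578, 0.806 and 0.432).

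Reads that fall on overlapping genes affect some of these values. Hcn3 on the opposite strand shares 711 exonic bases with Pklr, and Gm15441 shares 606 with Txnip. The counts used here are those of 1 strand, and on unstranded counts, from which shared bases drop out, Txnip kept 65.0% to 68.8% of its read pairs and Pklr 72.6% to 82.4%. All calls for the 7 genes were the same on unstranded counts. Gm15441 itself was low, at a mean of 15.5 in RD and 18.1 in HFD islets (log2 0.21, edgeR adjusted p = 0.725).

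The other known ChREBP targets did not all change the same way. Of 22 tested, 1 rose and 1 fell in HFD against RD islets (2.0% and 1.54% of all genes did). In HFD-O304 against RD islets 0 passed, against 1.31% of all genes. In HFD-O304 against HFD islets 3 were higher and 3 lower, against 5.08% and 6.79% of all genes. The list medians were -0.06, -0.01 and -0.02. Tkfc, encoding triokinase of fructose metabolism, rose by 0.33 in HFD islets (edgeR adjusted p = 0.00961) and was lower with O304 (log2 -0.43 against HFD, edgeR adjusted p = 0.000269). Scd1, which encodes the desaturase that makes monounsaturated fatty acids, fell by 0.79 in HFD islets (edgeR adjusted p = 0.000782) and was 0.78 higher with O304 than in HFD islets (edgeR adjusted p = 0.000183).

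Scd1 had a normalized count of 225 to 477 in RD, 156 to 276 in HFD and 305 to 418 in HFD-O304 islets. Khk, encoding ketohexokinase, was 0.72 higher in HFD-O304 than in HFD islets (edgeR adjusted p = 0.000188), and Gpd1, encoding a glycerol-3-phosphate dehydrogenase, was lower (log2 -0.26, edgeR adjusted p = 0.00215). The remaining 2 called genes were Mid1ip1 (log2 0.30) and Pnpla3 (log2 -1.08), which are named though the rule for named genes left them out. The lipogenic genes Fasn, Acaca and Acly were at 0.07, -0.20 and -0.11 in HFD against RD islets, and none passed (edgeR adjusted p = 0.676, 0.0275 and 0.293); they too were named after their values were seen. Klf10, a transcription factor gene of this list and the third most like Txnip by deviations, lay at 0.43 in HFD against RD islets (edgeR adjusted p = 0.0311). Its normalized counts were 672 to 1067 in HFD replicates 1 to 4 and 578 to 581 in HFD replicates 5 to 7, against 503 to 654 in RD islets.

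**Figure D5:**
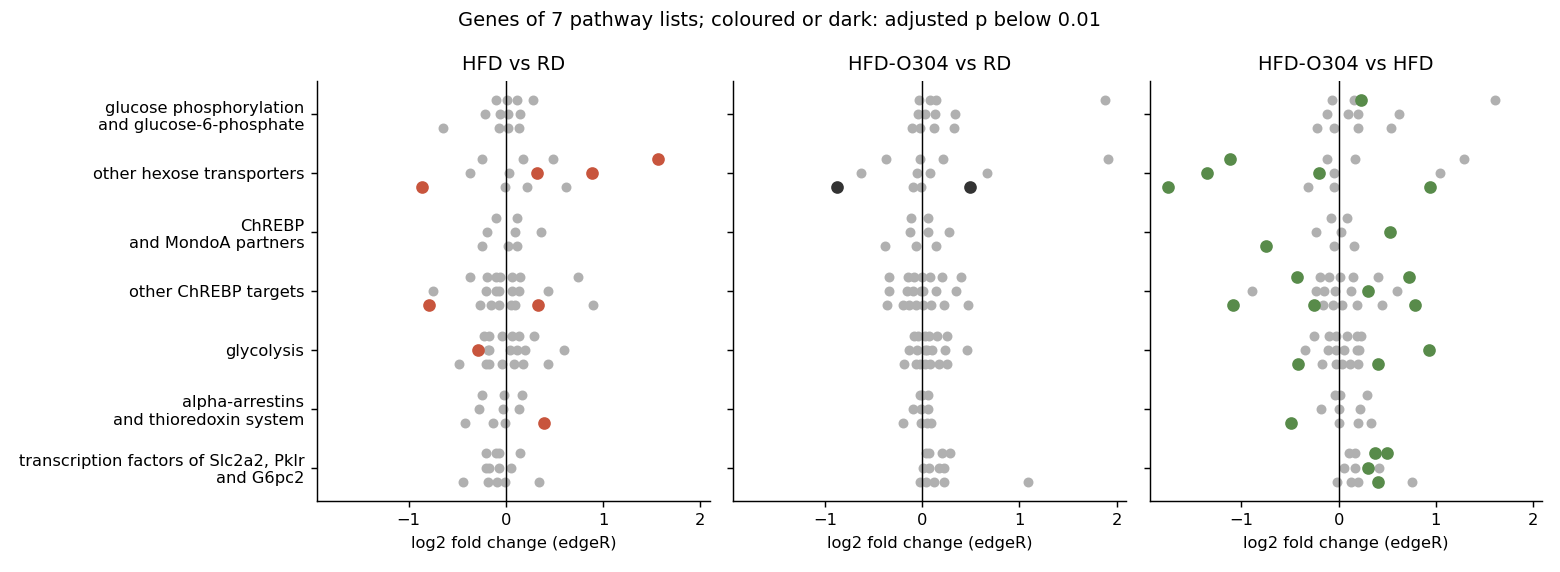
Log2 fold changes (horizontal axes, edgeR) of the genes of 7 pathway lists in the 3 comparisons, with larger coloured or dark points for adjusted p below 0.01 and grey points for the rest. Slc2a6 lies farthest left in HFD-O304 vs HFD at -1.76, and the ChREBP targets lie on both sides of 0.

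Of 20 tested genes of glycolysis, Pfkp, encoding the platelet-type phosphofructokinase, was the single call in HFD against RD islets (log2 -0.28, edgeR adjusted p = 0.00872), and 0 passed in HFD-O304 against RD islets. With O304 against HFD alone Aldoc (log2 0.93, edgeR adjusted p = 0.000126) and Pfkl (log2 0.40, edgeR adjusted p = 0.000186) were higher and Pgk1 was lower (log2 -0.42, edgeR adjusted p = 0.00328). Pkm lay at -0.04 in HFD against RD islets (edgeR adjusted p = 0.771). Of all genes, 3.54% passed in HFD against RD islets and 11.9% in HFD-O304 against HFD islets. The list's medians were 0.00, 0.04 and 0.05, close to those of all genes, and Pgam2 had too few reads to be tested.

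Among 13 transcription factors known to act on Slc2a2, Pklr or G6pc2, 0 passed in HFD against RD and in HFD-O304 against RD islets. In HFD-O304 against HFD islets 4 were higher, as were 5.08% of all genes, among them Foxa3 (log2 0.50, edgeR adjusted p = 5.57e-06), Neurod1 (0.40, edgeR adjusted p = 1.95e-05) and Foxa2 (0.31, edgeR adjusted p = 0.00957). The list's medians were -0.09, 0.12 and 0.20. In HFD-O304 against HFD islets 12 of the 13 had a value above 0, where the median of all genes was itself above 0, at 0.03. Whether these genes and Slc2a2 are linked was not tested.

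The genes most like the other members over the 21 samples were Ctdspl (r = 0.96), Gjd2 (0.96) and Dnajc24 (0.95) for Slc2a2, and Stat5a (0.88), Pcx (0.86) and Lrrc10b (0.86) for Slc2a1. For G6pc2 they were Spc25 (0.82), Itgav (0.82) and Slc16a10 (0.81), for Mlxipl Tbc1d17 (0.92), Gm34759 (0.92) and Insrr (0.91), and for Pklr Cplx2 (0.92), Ret (0.91) and Syngr1 (0.90). By deviations from the group means the first was Gjd2 (0.96) for Slc2a2, followed by Ctdspl (0.93) and Bach1 (0.92), and Ypel4 (0.97), Insrr (0.94) and Gcgr (0.93) for Mlxipl. For Slc2a1 these were Cog7 (0.84), Vat1 (0.83) and Krt19 (0.83), for G6pc2 Gm44850 (0.86), Slitrk6 (0.86) and Itgav (0.84), and for Pklr Fbxo21 (0.92), Ret (0.92) and Cplx2 (0.91).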

How the data were processed

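RNA from islets of RD, HFD and HFD-O304 mice, with 7 samples per group, was measured by paired-end RNA-seq. The authors mapped the reads to GRCm38 with STAR, with Ensembl version 96 genes named in the methods, and deposited the raw counts of pairs on each gene. Pairs with more than 1 mapping place or gene were left out of these counts. STAR's counts for the strand with the larger total were used, which exceeded the other strand 28.8 to 36.3 times. All 55536 gene identifiers were found in GENCODE M21, and 27229 genes with at least 10 read pairs were kept. Groups were compared with edgeR 4.0.16 (TMM, quasi-likelihood fit of all 3 groups, no covariates; R 4.3.3) with Benjamini-Hochberg adjustment over all genes tested and a threshold of 0.01, checked on simulated counts. Intervals are 1.96 SE to either side. Normalized counts are counts divided by the size factors of DESeq2 1.42.0, TPM uses summed exon length, and log2 ratios of counts plus 0.5 were compared by exact permutation over 3432 splits. Tables and figures used Python 3.11.15, pandas 2.3.3 and matplotlib 3.10.9. Alternatives covered test, normalization, filter, strand, which samples were fitted, a replicate block, the run of libraries, threshold and each sample left out.

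The members and lists were chosen with earlier results of these data known. The lists are 7 pathway lists of 99 genes, 97 of them tested, and markers of 11 cell types. The genes named are the 7 members, up to 4 called genes per list and comparison with the smallest adjusted p, a few fixed genes of glucose use (Hk1, Hk2, G6pc3, Slc37a4, Mlx, Mlxip, Pkm, Txn1), and the 3 genes most like each member. Depth, 13809266 to 48922569 read pairs on genes per sample, and the 7 samples per group limit the precision. The p-values measure the spread between pools of mice. Groups share replicate numbers, but same-numbered samples did not all deviate together: the correlation of deviations was over 0.1 in 4, 6 and 5 of 7 pairs in the 3 comparisons. Chromatin data were not analysed here, and some genes that the rule names, and 1 of the 4 gene ratios tested, are not reported here.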

Additional observations from a re-analysis of the deposited data

Results flagged for a closer look

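In Pklr, RD replicate 2, at a normalized count of 601, lay apart from the other RD samples, the next lowest being 778. Of 21 sets of 7 samples examined this was the single one with such a gap, and chance gives about 1 in 20. Without that sample the log2 difference of Pklr in HFD against RD islets stayed unpassed, as it did with any other sample left out (edgeR adjusted p from 0.238 to 0.757).

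The change of Arrdc4 differed between the runs of libraries in 2 comparisons. In HFD against RD islets it was 1.09 larger on the log2 scale in replicates 1 to 4 than in replicates 5 to 7 (edgeR adjusted p = 0.0128), and in HFD-O304 against HFD islets the difference was -0.96 (edgeR adjusted p = 0.0301). Both lie under an adjusted p of 0.05 and above 0.01.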

How the results depend on the processing

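With any 1 sample left out, Slc2a2, Slc2a1 and Txnip in HFD vs RD, and Slc2a2 and Arrdc4 in HFD-O304 vs HFD, stayed past the threshold. Arrdc4 in HFD vs RD missed it in 6 of 21 such fits and with the 2 groups alone (edgeR adjusted p = 0.0169). The number of members called moved by over 1.5 times in 3 cases: 1 within replicates 5 to 7 (HFD vs RD, Slc2a2), 1 with the 2 groups alone (HFD-O304 vs RD, Txnip) and 4 at an adjusted p under 0.05 (HFD-O304 vs HFD, adding Mlxipl and Txnip). Mlxipl in HFD-O304 vs HFD also passed without a filter on low counts and with the run of libraries as a covariate (edgeR adjusted p = 0.00878 and 0.00997).

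Genes called in all were 963 (HFD vs RD), 356 (HFD-O304 vs RD) and 3230 (HFD-O304 vs HFD). They came to 2148, 785 and 5150 at an adjusted p under 0.05, and to 563, 85 and 2001 within replicates 1 to 4 and 307, 228 and 1456 within replicates 5 to 7, where fewer samples entered. DESeq2 called 1758 and 727 in the first pair of comparisons, the run of libraries as a covariate gave 1611 and 543, and the 2 groups alone gave 627 in HFD vs RD. Leaving out 1 sample gave 589 (without RD replicate 7; 599 without HFD replicate 4) to 1594 (without HFD replicate 7) in HFD vs RD, and 221 (without RD replicate 3; 225 and 235 without HFD-O304 replicates 5 and 1) to 423 in HFD-O304 vs RD. The cause was not tested.

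A replicate block gave 1577, 543 and 3763 genes, Mlxipl passed in HFD-O304 vs HFD (edgeR adjusted p = 0.00606), and no other member's call changed. The block took both ratio calls above an adjusted p of 0.05 (0.55 for Slc2a2 to Slc2a1 and 0.65 for Mlxipl to Mlxip, adjusted p = 0.187), as did unstranded counts (0.57 and 0.65). The numbers do not pair the samples by the labels, and 3, 2 and 2 of 7 samples deviated most like the one with their own number. Leaving out 1 sample gave 0.45 to 0.62 and 0.51 to 0.74 for these ratios, with an adjusted p above 0.05 in 13 and 12 of 14 cases, and 0.38 to 0.52 for Mlxipl to Mlxip in HFD-O304 vs RD, past 0.05 only without HFD-O304 replicate 4.

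Apart from Txnip in HFD-O304 vs HFD, which was -0.77 over all samples and 0.10 within replicates 5 to 7, and Mlxipl in HFD vs RD, which was -0.17 and 0.013, signs turned for members within 0.08 of 0 over all samples. G6pc2 lay at 0.038 in HFD vs RD within replicates 5 to 7, and at 0.0015 (HFD-O304 vs RD) and 0.041 (HFD-O304 vs HFD) within replicates 1 to 4. With 1 sample left out it ran from -0.050 to 0.069 in HFD vs RD and from -0.14 to 0.0046 in HFD-O304 vs RD. Arrdc4 in HFD-O304 vs RD was -0.055 within replicates 5 to 7, running from -0.018 to 0.078 with 1 sample left out. The ratio of Pklr to Pkm in HFD-O304 vs RD ran from -0.045 to 0.10 in the same way.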
